A study of Mus musculus with 21 samples.

Results

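The genes described here encode the nuclear subunits of the mitochondrial respiratory chain and of ATP synthase, together with a few assembly factors that carry the same name stem. They were chosen by symbol alone, as every gene on the array whose name begins with Nduf, Uqcr, Atp5 or Cox4 to Cox8, or is one of Sdha, Sdhb, Sdhc and Sdhd. This gave 87 of the 16535 genes that could be named on the array, measured by 108 probes, and each gene was read from its brightest probe in the liver channel. By complex, 36 belonged to complex I by name, 4 to complex II, 7 to complex III, 18 to complex IV and 17 to complex V, and 5 were complex I assembly factors. Ndufa4 was counted with complex I for its name, although its protein is now assigned to complex IV.

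Oxidative phosphorylation takes electrons from NADH at complex I and from succinate at complex II, passes them through complex III and cytochrome c to oxygen at complex IV, and uses the proton gradient so made to drive ATP synthase, complex V. Hepatocytes are rich in mitochondria and use this ATP for gluconeogenesis, urea synthesis and protein secretion. Most subunits are encoded in the nucleus, a small core is encoded in mitochondrial DNA, and several complex IV subunits exist as paired isoforms, one broadly expressed and one typical of heart and skeletal muscle or of testis. No probe was assigned to a mitochondrially encoded subunit by the accession match used here, so those genes were not analysed.

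The livers came from female C57BL/6 mice that were bought at 5 to 7 weeks of age and kept for 1 to 3 weeks before the experiment. Treated mice had received 162 µg of nanosized titanium dioxide (nano-TiO2) once into the trachea in 40 µl, and control mice the vehicle, saline with cell-free bronchoalveolar lavage fluid of other mice, both under the same anaesthesia. Livers were taken at day 1 (5 control and 6 TiO2 mice) and at day 28 (4 control and 6 TiO2 mice), with 1 mouse on each of 21 arrays. Each array carried liver RNA in the red dye (Cy5) and an RNA pool of 11 mouse cell lines, the reference, in the green dye (Cy3), with no dye swap. A level below is the log2 ratio of liver to reference for 1 gene: it sets a gene's RNA in liver against the same gene's RNA in the reference and says nothing about which gene is more abundant. The untreated comparator at each day was the vehicle group, and no naive group was among the arrays.

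The extraction protocol names left lung whereas every sample is labelled liver, so markers of both tissues were read. All 14 of the hepatocyte markers found on the array were well above background on all 21 arrays, with per-array medians of 4.80 to 6.28. Between 3 and 11 of 13 lung markers were above background on an array, the alveolar gene Ager on 0 arrays and the surfactant gene Sftpc on 2, whereas Sftpd and Cyp2f2 were above it on all 21, Lamp3 on 20, Scgb1a1 on 17 and Slc34a2 on 16. Between 1 and 11 of 14 heart and skeletal muscle markers were above background, with Ckm and Myh4 on 0 arrays, whereas Myl7 was above it on all 21, Actc1 on 16, and Tnnt2 and Atp2a1 on 10. The arrays were scanned on 3 days, and each scan day held all 4 groups. The 6 arrays of scan day 1, which are control day 1 replicate 1, control day 28 replicate 1, TiO2 day 1 replicates 1 and 2, and TiO2 day 28 replicates 1 and 2, stood apart for many of the genes below, and results that rest on them are given with and without them.

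Of the 87 genes, 82 passed the filter, which took a probe when 50% or more of the arrays in any group had a liver signal well above background. Of these, 79 were well above background on all 21 arrays and none was saturated. Cox6a2 was above background on 20 arrays, Cox6b2 on 16 and Ndufaf5 on 11. The 5 genes that did not pass were Ndufaf7, above background on 5 arrays, Cox8b on 2, and Cox4i2, Cox7b2 and Cox8c on 0. Cox8b marks brown fat and muscle, Cox4i2 is the isoform known from lung, and Cox7b2 and Cox8c are isoforms known from testis. All further counts are over the 82 genes that passed, of which 7 lacked a value on 1 array of scan day 1 and were fitted without it (Atp5g1, Atp5l, Ndufb3, Ndufs3, Uqcrc1 and Uqcrc2 on control day 28 replicate 1, Cox6c on TiO2 day 28 replicate 1).

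Sequence near the gene starts was set beside these groups, because nuclear respiratory genes are known targets of the factors NRF1, GABP, YY1 and ERRα. RefSeq promoters of build GRCm38.p6, each from 250 bases before to 50 after the gene start, were found for 72 of the 87 genes. A palindromic form of the NRF1 motif, GCGCA followed at once by its reverse complement TGCGC, stood in 6 of the 72 (8.33%), against 1.07% of 27025 genes and 0.971% of all 32851 promoter sequences of that length. The 6 windows of 30 bases below show where they lie, with the motif in capitals, read 5′ to 3′ on the strand of the gene.

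Uqcrc1, complex III, chr9:108936668-108936697, plus strand: actccgctctGCGCATGCGCagcgcggctc
Cox6a1, complex IV, chr5:115349101-115349130, minus strand: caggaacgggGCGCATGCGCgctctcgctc
Atp5g2, complex V, chr15:102671070-102671099, minus strand: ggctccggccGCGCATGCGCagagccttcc
Atp5k, complex V, chr5:108434430-108434459, minus strand: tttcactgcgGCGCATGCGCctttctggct
Ndufaf4, assembly factor, chr4:24897960-24897989, plus strand: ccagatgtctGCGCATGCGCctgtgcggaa
Ndufaf5, assembly factor, chr2:140170652-140170681, plus strand: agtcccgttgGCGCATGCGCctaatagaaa

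None of the 32 complex I promoters held these letters. In Uqcrc1 and Ndufaf5 the motif lay after the gene start, and in the other 4 genes before it. The letters AAGATGGC, a YY1 motif searched on both strands, stood in 10 of the 72 promoters (13.9%, against 3.19% of all genes), and 7 of the 10 were among the 32 complex I genes. The other 3 were the complex V genes Atp5j, Atp5j2 and Atp5pb. The 7 complex I windows are shown with that of Atp5j2, because the motif lay in each of these 8 between 22 and 46 bases after the gene start, on the same strand as the gene. In Atp5j and Atp5pb it lay elsewhere.

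Ndufa3, chr7:3617384-3617413, plus strand: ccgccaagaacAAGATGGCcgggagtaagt
Ndufa9, chr6:126849097-126849126, minus strand: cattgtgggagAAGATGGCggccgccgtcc
Ndufb8, chr19:44555393-44555422, minus strand: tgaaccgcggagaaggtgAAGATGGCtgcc
Ndufc1, chr3:51408915-51408944, minus strand: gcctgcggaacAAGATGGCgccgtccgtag
Ndufs4, chr13:114388045-114388074, minus strand: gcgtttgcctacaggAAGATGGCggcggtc
Ndufs6, chr13:73328433-73328462, minus strand: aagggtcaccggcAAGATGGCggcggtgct
Ndufs7, chr10:80249462-80249491, plus strand: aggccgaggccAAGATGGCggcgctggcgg
Atp5j2, chr5:145191500-145191529, minus strand: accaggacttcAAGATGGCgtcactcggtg

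The letters CCGGAAG, an ETS motif of the kind that GABP binds, stood in 18 of the 72 promoters (25%, against 9.93% of all genes), among them those of Sdhb, Sdhd, Uqcrh, Uqcr11, Cox6b1 and Cox8a. The letters AAGGTCA, the core site of ERRα, stood in 8 (11.1%, against 5.38%), 4 of them in complex V. All were searched on both strands. The GABP letters end with the AAG that opens the YY1 and ERRα letters, so that 1 stretch can hold a match to more than 1 motif. A match describes the letters in the window and is no evidence that a factor binds there.

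In the control livers most of these genes stood above the reference. Of 82 genes, 70 had a mean above 0 (85.4%, against 54.6% of the 17624 features tested, which are named genes and unnamed probes), and the median of the means was 0.57 against 0.07. On every one of the 21 arrays 43 genes were above 0 (52.4%, against 24.7% of features) and 4 were below 0 (4.88%, against 26.4%). Ratios more than 2-fold above the reference were found in 11 of 82 (13.4%, against 13.3% of features), and ratios as far below it in 3 (3.66%, against 13.6%). The first of these counts depends on the processing: it was 36 with a normexp offset of 10 (19.3% of features), 37 with the scanner's LogRatio (23.8%), 16 in the deposited table of processed values (12.7%) and 1 with median centring (8.68%). The median by complex was 0.57 for complex I, 1.19 for complex II, 1.17 for complex III, 0.01 for complex IV, 0.41 for complex V and 0.28 for the 4 assembly factors. The zero of this scale depends on the normalization. Median centring in place of loess moved the median of all features from 0.07 to -0.40 and that of these genes from 0.57 to -0.14. Then 33 of 82 stood above 0, against 33.6% of features. Of complexes I to V, complex III at 0.54 and complex II at 0.37 were still the highest and complex IV at -0.55 still the lowest.

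**Figure D1:**
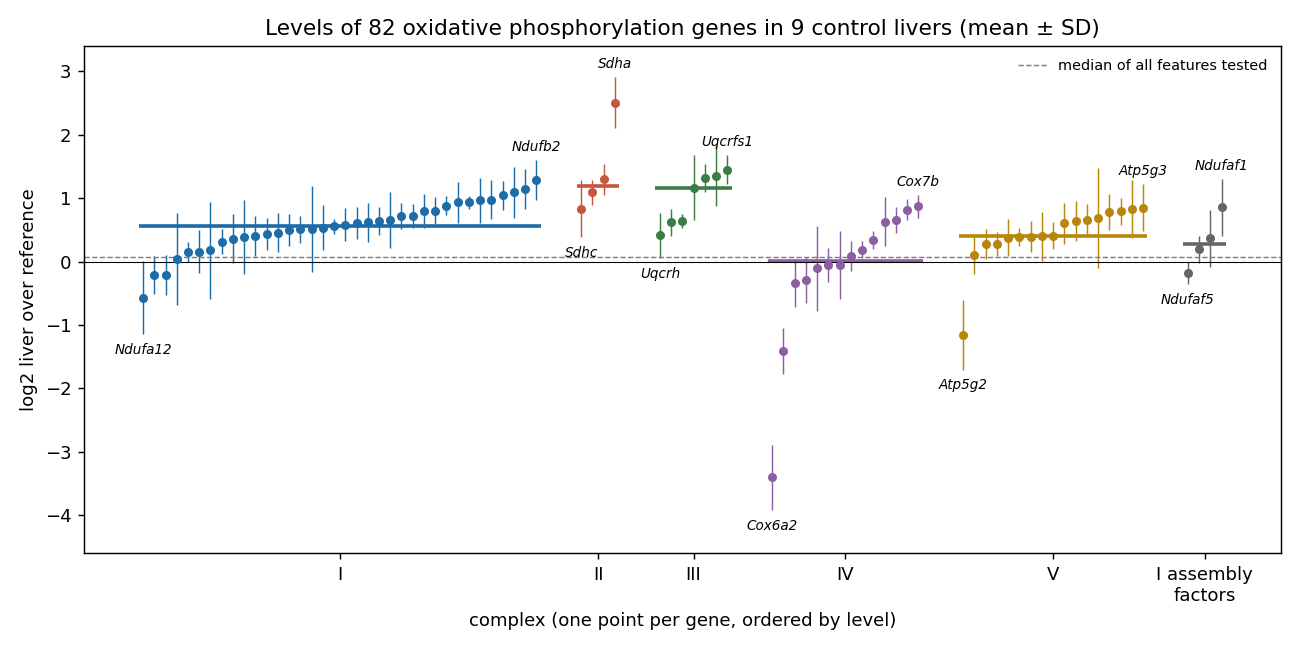
Level of each of the 82 genes in the 9 control livers, as log2 of liver over reference on the vertical axis, with 1 point per gene (mean) and bars of 1 SD over mice, grouped by complex and ordered by level. Thick lines are the medians of the complexes and the dashed line is the median of all features tested (0.07); complexes II and III stand above the others, and Cox6a2 at -3.40 lies below all other genes.

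Complex II, succinate dehydrogenase, also serves the tricarboxylic acid cycle, and its 4 subunits all stood above the reference in the controls. Sdha, the flavoprotein that oxidises succinate, read 1.91, 2.89, 2.76, 2.64 and 2.32 in the 5 control mice of day 1 and 1.88, 2.91, 2.81 and 2.40 in the 4 of day 28, a mean of 2.50 ± 0.40 (SD, n = 9). That is a 5.66-fold ratio, the highest of the 82 genes under this processing. In the TiO2 livers Sdha ran from 1.60 to 2.67 at day 1 (median 2.32) and from 1.42 to 2.97 at day 28 (median 2.46), so the groups overlapped. The lowest value of each group was an array of scan day 1, and without that day the control mean was 2.68 ± 0.23 (SD, n = 7). A second Sdha probe, dimmer, gave 1.00. Sdhb, the iron-sulfur subunit that hands electrons on, stood at 1.30 ± 0.24, and the membrane anchors Sdhd and Sdhc at 1.09 ± 0.20 and 0.83 ± 0.45.

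Complex III, the cytochrome bc1 complex, was above the reference for all 7 of the genes counted with it by name. Uqcrfs1, the Rieske iron-sulfur protein, led with 1.45 ± 0.23 (SD, n = 9), a 2.73-fold ratio. Its values in the day 1 controls were 0.98, 1.44, 1.52, 1.54 and 1.41, and in the day 28 controls 1.86, 1.41, 1.38 and 1.49. The TiO2 livers ran from 1.30 to 1.79 at day 1 (median 1.36) and from 1.35 to 1.82 at day 28 (median 1.40), within the range of the controls. Uqcrb and Uqcrq, small subunits near the quinone site, stood at 1.35 ± 0.48 and 1.31 ± 0.22, and the core protein Uqcrc2 at 1.17 ± 0.51, the latter over 8 mice. The other core protein, Uqcrc1, stood at 0.62 ± 0.22 (n = 8) by its brighter probe and at 0.10 by its other probe, Uqcr11 at 0.64 ± 0.11, and the hinge protein Uqcrh at 0.42 ± 0.36. Scan day took the smallest part of the spread here, a median of 22.5% over the 5 genes with a value on every array.

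Complex I was represented by 36 genes, of which 33 had control means above 0. Among the highest were Ndufb2 at 1.28 ± 0.32, Ndufa4 at 1.15 ± 0.31, Ndufa13 at 1.09 ± 0.40 (SD, n = 9 each) and Ndufs3 at 1.04 ± 0.23 (n = 8). The lowest 3 were Ndufs7 and Ndufb8, both at -0.21, and Ndufa12 at -0.57 ± 0.57. Of the core subunits that carry the flavin and iron-sulfur clusters, Ndufv1 stood at 0.53 ± 0.36, whereas Ndufs1 averaged 0.04 ± 0.73. The Ndufs1 mean joined 2 sets of arrays. The day 1 controls read -1.23, 0.51, 0.30, 0.49 and 0.26 and the day 28 controls -1.23, 0.53, 0.45 and 0.28, and in both groups the low array was the one of scan day 1; without it the mean was 0.40 ± 0.12 (SD, n = 7). The carrier protein Ndufab1 stood at 0.61 by its brighter probe and at 1.54 by its other, and Ndufv3 at 0.45 by its brightest probe and at -0.46 and -0.32 by the others. The 7 genes with the YY1 letters ran from -0.21 in Ndufs7 and Ndufb8 to 0.93 in Ndufa9 and Ndufs6.

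Complex IV, cytochrome c oxidase, had the widest range, with 7 of its 14 tested genes above 0 and 7 below. The highest were Cox7b at 0.87 ± 0.18 and Cox6b1 at 0.82 ± 0.17, both small nuclear subunits of the common enzyme. The lowest was Cox6a2, the isoform of heart and skeletal muscle, which read -2.56, -3.59, -4.12, -3.53 and -3.34 in the day 1 controls and -3.00, -4.12, -3.41 and -2.97 in the day 28 controls. Its mean of -3.40 ± 0.52 (SD, n = 9) is a ratio of 0.0944, and its broadly expressed partner Cox6a1 stood at 0.33 ± 0.14 with every one of the 9 values above 0. With the scanner's LogRatio these levels were -4.56 and 1.41; Cox6a1 was 1.33 in the deposited table of processed values, 0.99 with offset 10 and 0.02 with median centring. The TiO2 livers held Cox6a2 between -3.90 and -2.60 at day 1 (median -3.34) and between -4.16 and -2.79 at day 28 (median -3.38), overlapping the controls. The other muscle isoform on the list that passed, Cox7a1, stood at -0.06 ± 0.27. Its partner Cox7a2 stood at 0.08 ± 0.24 by its brighter probe, within 1 SD of Cox7a1. A second Cox7a2 probe gave 0.43, so that this closeness depends on the probe. Cox6b2, the testis partner of Cox6b1, read 0.19 ± 0.14 but was above background on 16 arrays. Cox7c at -1.41 ± 0.37 and the regulatory subunit Cox4i1 at -0.06 ± 0.54 were other genes of this complex at or below the reference; Cox7c was picked out after its value was seen.

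Complex V, ATP synthase, had 16 of 17 genes above 0 in the controls. Its membrane ring is built from a protein that 3 genes encode, differing in their leader peptides: Atp5g3 stood at 0.85 ± 0.37, Atp5g1 at 0.65 ± 0.26 (n = 8) and Atp5g2 at -1.16 ± 0.55. Atp5g2 was below 0 on all 21 arrays, and its second probe gave -1.07. Its level ran to -0.72 with offset 10 and to -0.10 with the scanner's LogRatio. The catalytic head subunits stood at 0.79 ± 0.21 for Atp5a1 and 0.10 ± 0.29 for Atp5b. The assembly factor Ndufaf1 stood at 0.86 ± 0.45, Ndufaf4 at 0.37 ± 0.45, Ndufaf3 at 0.19 ± 0.21 and Ndufaf5 at -0.18 ± 0.18.

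The median over the genes of a complex overlapped among the 4 groups. For complex I it averaged 0.56 ± 0.15 (SD, n = 5) in the controls and 0.60 ± 0.08 (n = 6) in the TiO2 mice at day 1, and 0.64 ± 0.10 (n = 4) and 0.56 ± 0.05 (n = 6) at day 28. For complex II these means ran from 1.21 to 1.25, for complex III from 0.96 to 1.06 and for complex V from 0.44 to 0.51. Complex IV averaged 0.20 ± 0.13 in the day 1 controls and 0.07 ± 0.07 in the day 1 TiO2 mice, with single mice from 0.05 to 0.33 and from -0.03 to 0.19, so that these groups overlapped as well.

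**Figure D2:**
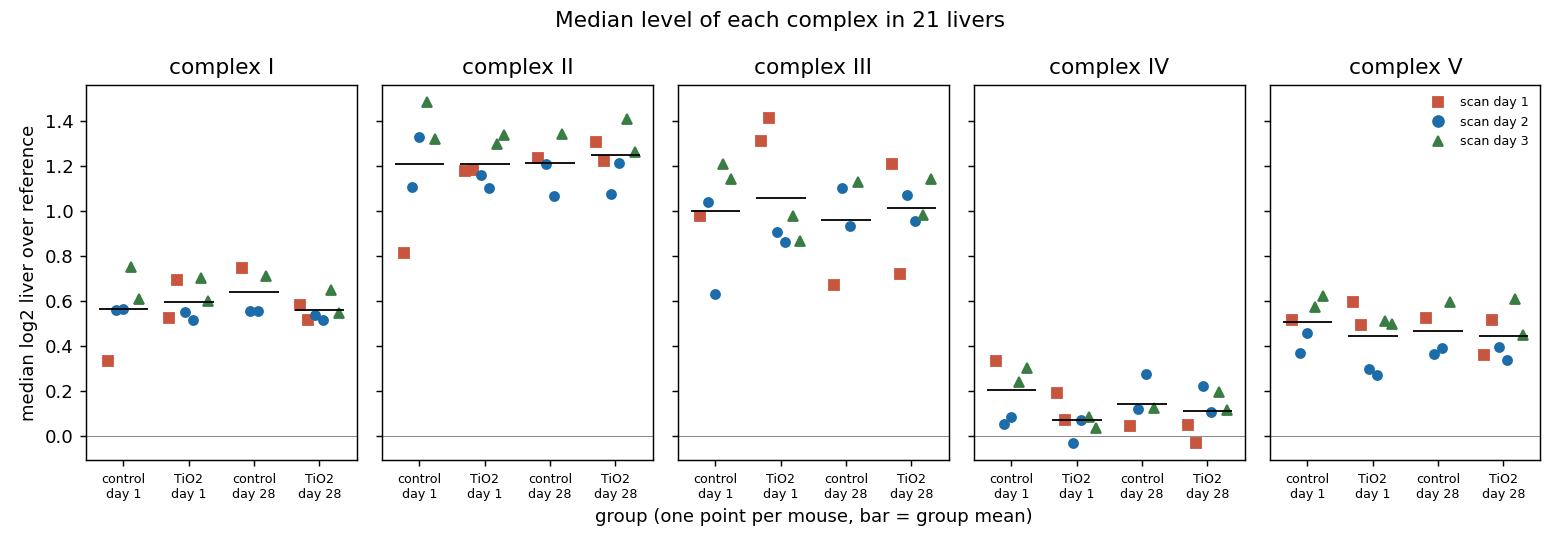
Median log2 ratio of liver over reference over the genes of complexes I to V in each of the 21 mice, by group, with 1 point per mouse, symbols for the 3 scan days and bars for group means. The groups overlap in every complex; complex III shows the widest spread on scan day 1 (0.67 to 1.42), and complex V is lowest on scan day 2 (mean 0.36).

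The largest differences among mice followed the scan day. Over the 75 genes with a value on every array, scan day took a median of 59.3% of the spread within groups, against 41.4% over 17449 features. The mean on scan day 1 was lower than on scan day 2 by over 1 log2 unit in 8 of the 82 genes (9.76%, against 3.22% of features) and higher by as much in 1 (1.22%, against 0.704%). Between scan days 3 and 2 no gene of the 82 differed by that much. The 8 were Ndufs1, Ndufa6, Ndufa3, Ndufs4 and Ndufa12 of complex I, Cox6c of complex IV, and Atp5j and Atp5g2 of complex V, and the 1 was Cox6a2. All of these were picked out for this shift. Ndufs1 averaged -1.18 on scan day 1, 0.41 on scan day 2 and 0.25 on scan day 3; Ndufa6, an accessory subunit, -0.97, 0.61 and 0.44; and Atp5j, coupling factor 6 of the stalk, -0.48, 1.04 and 1.04. Atp5h, another stalk subunit, averaged 0.40, 0.39 and 0.42 on the same arrays by its brighter probe. A second Atp5h probe of similar brightness averaged 0.93, 0.44 and 0.52.

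Both channels were read for these genes. Before loess, and relative to the median of all features in the same channel of each array, the liver signal of Ndufs1 was 2.03, 4.50 and 3.60 on the 3 scan days and its reference signal 3.87, 3.68 and 4.00. For Atp5j the liver signal was 4.48, 7.29 and 6.38 and the reference signal 5.54, 5.48 and 5.87. For the brighter Atp5h probe, whose ratio differed by 0.01 between scan days 1 and 2, the difference in liver signal was -1.26. For Cox6a2, whose ratio was higher by 1.06 on scan day 1, that difference was 0.37. Different probes of 1 gene did not always move together. The brighter Atp5g2 probe averaged -1.97 on scan day 1 and -0.91 on scan day 2, and its other probe -0.83 and -1.23. The probes of Ndufa12 gave -1.32, -1.93 and -0.44 on scan day 1, and -0.29, -0.48 and -0.35 on scan day 2. What sets scan day 1 apart was not tested. Because each scan day holds all 4 groups, the comparisons below are given over all arrays, with scan day as a block, and without scan day 1 where this matters.

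**Figure D3:**
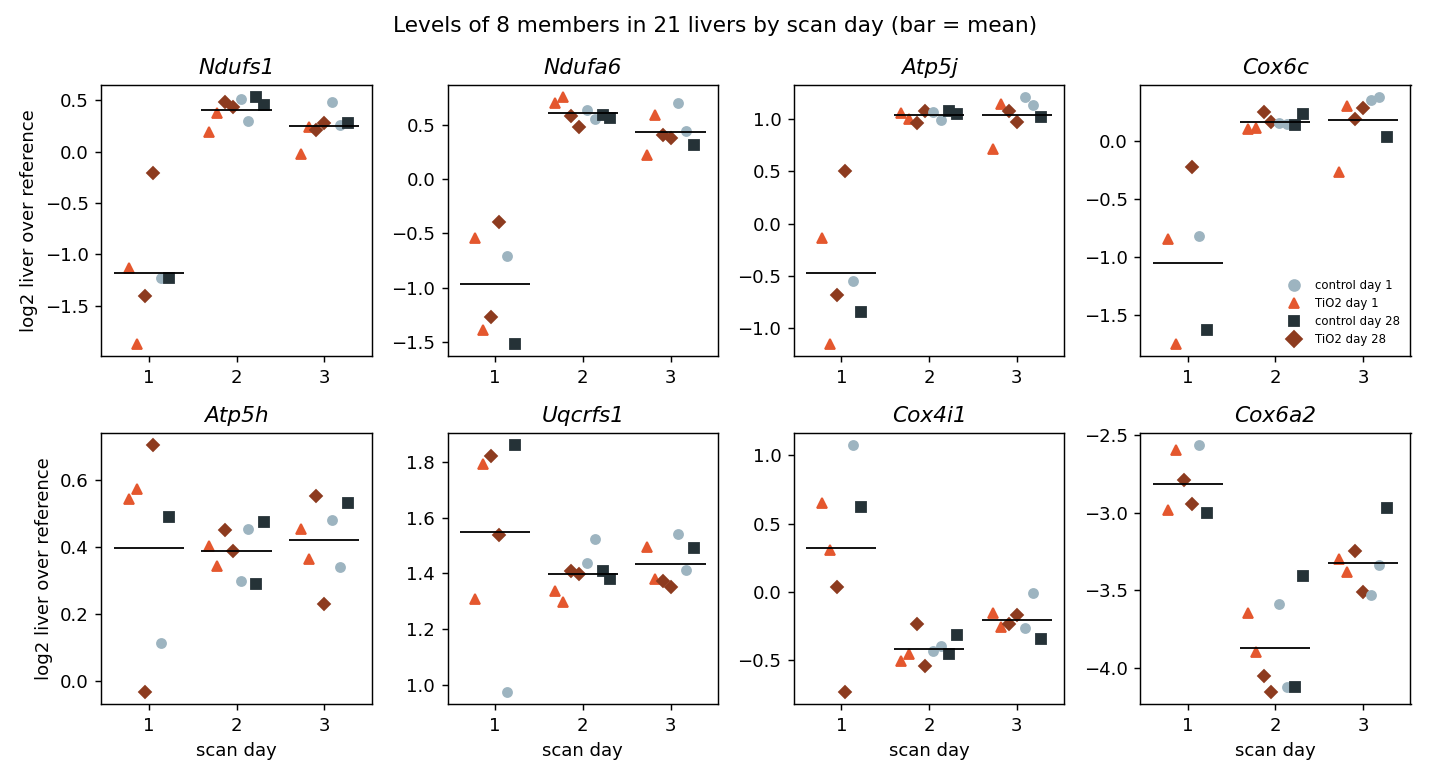
Log2 ratio of liver over reference of 8 genes on the arrays of scan days 1, 2 and 3, with 1 point per mouse, a symbol for each group and a bar for the mean of the day; each panel has its own vertical axis and Cox6c lacks a value on 1 array. Ndufs1, Ndufa6, Atp5j and Cox6c are lower on scan day 1 in all 4 groups. Cox4i1 and Cox6a2 are higher there on average, and Atp5h, shown by its brighter probe, keeps a mean near 0.4.

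At day 1 after instillation no gene of the 82 passed the test between TiO2 and control livers. With limma and Benjamini-Hochberg adjustment over 17624 features, 0 of 82 passed an adjusted p of 0.05 (0% of all features), and 0 of 82 had an unadjusted p under 0.05 (1.72% of features). In none of the 82 did the TiO2 livers lie all above or all below the controls (0.0681% and 0.0454% of features). For scale, the acute-phase genes Lcn2 and Saa3 differed by 1.48 ± 0.27 and 2.41 ± 0.50 (log2 difference, TiO2 minus control, ± SE) with limma adjusted p of 0.29 and 0.76, which do not pass either. Among the 82 genes 60 had a lower mean in TiO2 livers (73.2%, against 51.9% of features) and 22 a higher one, and the median difference was -0.08 against -0.01 for all features. No difference exceeded 0.5 log2 units, and the median SE was 0.15.

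Lower means were found in 24 of 36 complex I genes, 3 of 4 complex II genes, 6 of 7 complex III genes, 11 of 14 complex IV genes and 14 of 17 complex V genes. The median per mouse did not follow these counts in every complex. It averaged higher in the TiO2 livers for complexes I and III, was 1.21 in both groups for complex II, and was lower for complexes IV and V. The median of the 82 differences was -0.09, -0.06 and -0.10 within scan days 1, 2 and 3. Without the arrays of scan day 1, 74 of 82 were lower (90.2%, against 52.6% of features), with a median of -0.08 against -0.01 and a range of -0.26 to 0.09. Genes share arrays, and these counts are not independent observations. With median centring in place of loess, 80 of 82 were lower (97.6%, against 80.6% of features), with medians of -0.25 for these genes and -0.10 for all features. Without control day 1 replicate 1 the complex IV median moved from -0.09 to 0.03. Of 5 neutrophil markers 1 to 4 were above background on an array, Elane on 0 arrays and S100a9 on all 21. Their mean level per mouse was 0.44 to 0.74 in the day 1 controls and 0.41 to 1.08 in the day 1 TiO2 livers, and that of the 14 hepatocyte markers was 5.22 to 6.33 and 4.98 to 6.26; their part in this shift was not tested. In RNA from whole liver, fewer cells of a type and less RNA per cell cannot be told apart.

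The genes with the largest differences at day 1 were spread over the complexes. Sdhc, a membrane anchor of complex II, read 0.79, 0.96, 1.27, 0.94 and 1.16 in the controls and from 0.10 to 1.07 in the TiO2 livers (median 0.73). The TiO2 values reached lower and overlapped the controls, and the difference was -0.36 ± 0.21 (SE; 95% interval -0.80 to 0.09), and -0.26 ± 0.15 without scan day 1. Atp5g3 read 0.51, 1.05, 1.02, 1.15 and 1.04 in the controls and from -0.06 to 0.98 in the TiO2 livers (median 0.66), a difference of -0.41 ± 0.27. The lowest control value of Atp5g3 was the array of scan day 1, and so were its lowest TiO2 values, 0.06 and -0.06. Over all arrays the groups overlapped for Atp5g3. Without scan day 1 its difference was -0.25 ± 0.11, with an unadjusted limma p of 0.036 and an adjusted p of 1.00; it was 1 of 82 genes with an unadjusted p under 0.05 there (1.22%, against 1.35% of features). Ndufs1 and Cox6c had the lowest differences, -0.43 ± 0.44 and -0.44 ± 0.35. Their size depended on scan day 1: without it they were nearer 0 and still negative, -0.19 ± 0.11 and -0.20 ± 0.11.

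Higher means at day 1 were fewer and smaller. Ndufb6, an accessory subunit of complex I, read -0.10, 0.29, 0.50, 0.54 and 0.61 in the controls and from 0.36 to 0.78 in the TiO2 livers (median 0.61), a difference of 0.22 ± 0.12. The low control was the array of scan day 1, and without that day the difference was 0.05 ± 0.13. With scan day as a block, 5 of 82 genes had an unadjusted p under 0.05 (6.10%, against 4.09% of features) and none passed the adjustment: Ndufb6 was higher, and Ndufs3, Ndufb9, Sdhc and Uqcrc1 were lower by 0.20, 0.30, 0.28 and 0.20 in that fit. Highest in the other complexes were Sdhb at 0.10 ± 0.14, Uqcrfs1 at 0.06 ± 0.12, Cox6a2 at 0.13 ± 0.30 and Atp5pb at 0.17 ± 0.17, all of which turned sign under some alternatives.

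**Figure D4:**
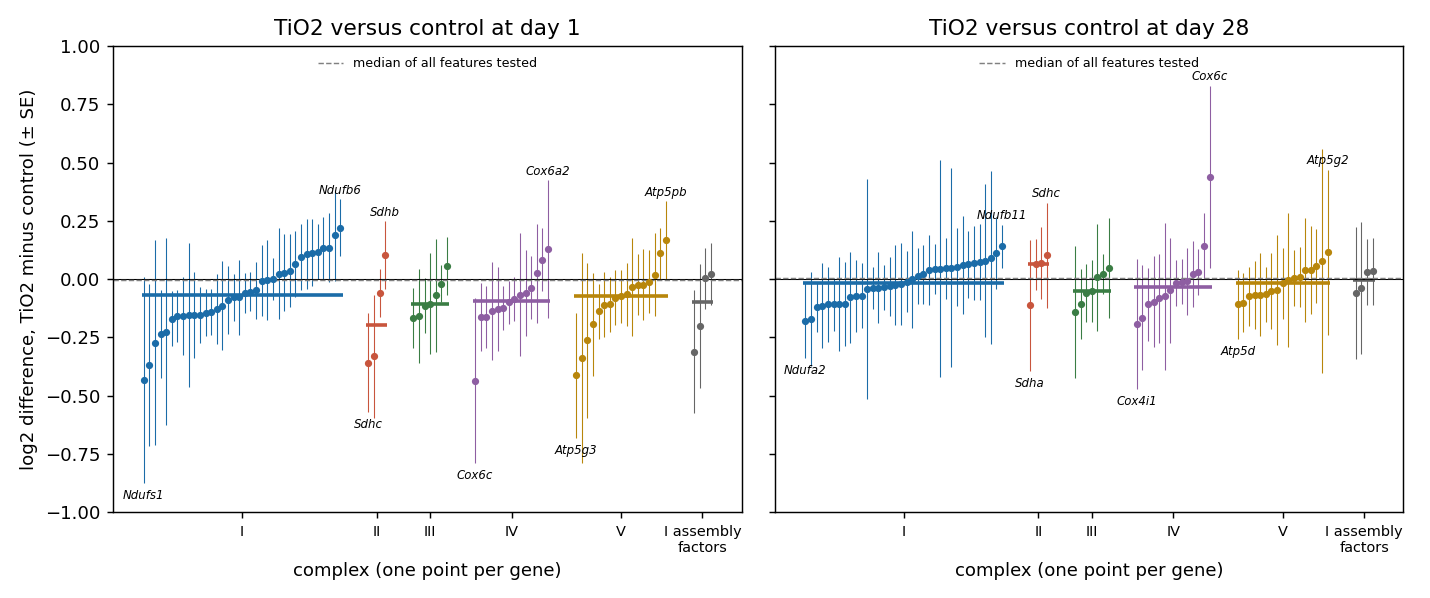
Difference between TiO2 and control livers for each of the 82 genes at day 1 (left) and day 28 (right), in log2 units with bars of 1 SE, grouped by complex and ordered by size. Thick lines are medians of the complexes and the dashed line the median of all features tested; at day 1 the complex medians lie below 0 (-0.07 to -0.20) and at day 28 near it (-0.05 to 0.07), and no gene passes the adjusted threshold on either day.

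At day 28 none of the 82 genes passed the adjusted threshold between TiO2 and control livers in limma (0% of features), and 0 of 82 had an unadjusted p under 0.05 (0.942% of features). There were 35 genes with a higher and 47 with a lower mean (57.3% lower, against 48.5% of features), and the median difference was -0.02 against 0.00 for all features. With median centring 80 of 82 were lower (all features 86.3%), with medians of -0.32 and -0.14. Without scan day 1, 46 of 82 were lower (56.1%, against 50.4% of features) and 0 of 82 had an unadjusted p under 0.05 (1.23% of features). In no gene did the groups separate without overlap (0.125% and 0.153% of features, higher and lower). Complex medians ran from -0.05 for complex III to 0.07 for complex II. With scan day as a block, Ndufa2 and Uqcrc1 had an unadjusted p under 0.05 (2 of 82, 2.44%, against 2.97% of features), lower by 0.23 and 0.24, and neither passed the adjustment.

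The gene with the largest difference at day 28 was Cox6c, a small nuclear subunit of cytochrome c oxidase, at 0.44 ± 0.39 (SE). The day 28 controls read -1.63, 0.14, 0.24 and 0.04, and the 5 TiO2 livers with a value ran from -0.23 to 0.29 (median 0.19), so 3 of 4 controls lay inside the TiO2 range. Without control day 28 replicate 1, the array at -1.63, the difference was -0.01, and without all of scan day 1 it was 0.09 ± 0.12. Ndufb11 at 0.14 ± 0.09 (0.05 without scan day 1) was the highest of complex I and Ndufa2 at -0.18 ± 0.16 the lowest. The other lowest values were -0.19 ± 0.28 for Cox4i1, -0.14 ± 0.28 for Uqcrc2, -0.11 ± 0.28 for Sdha and -0.11 ± 0.15 for Atp5d. Without scan day 1 these were 0.07, -0.08, -0.06 and -0.01.

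The change of the TiO2 effect between the days was tested as the day 28 difference minus the day 1 difference. None of 82 genes passed (0% of features) and 0 of 82 had an unadjusted p under 0.05 (0.692% of features); 56 were above 0 and 26 below (31.7% below, against 48.9% of features), with a median of 0.05 against 0.00. Cox6c at 0.87 ± 0.53 and Sdhc at 0.46 ± 0.31 were the furthest from 0 in their complexes. Within scan days 1, 2 and 3 the Cox6c value was 1.88, 0.07 and 0.55, and that of Sdhc 1.01, 0.04 and 0.65. Without scan day 1 the values were 0.28 ± 0.16 and 0.27 ± 0.21, 20 of 82 genes were below 0 (24.4%, against 48.2% of features) and 0 of 82 had an unadjusted p under 0.05 (1.12% of features). With scan day as a block these were the 2 genes of 82 with an unadjusted p under 0.05 (2.44%, against 2.91% of features), and neither passed. With median centring 60 of 82 lay below 0 (all features 60.6%), so this direction depends on the normalization. This comparison shares all of its samples with the 2 above and adds no evidence to them.

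Between day 1 and day 28 none of the 82 genes passed the adjusted threshold in the control livers (0% of features), and 1 had an unadjusted p under 0.05 (1.22%, against 3.01% of features). That gene was Cox6b1, which sits between the monomers of the cytochrome c oxidase dimer. It read 1.13, 0.82, 0.81, 0.95 and 0.88 at day 1 and 0.78, 0.66, 0.54 and 0.79 at day 28. All day 28 values lay below all day 1 values, as in 1 of 82 genes (1.22%, against 0.272% of features), and the difference was -0.22 ± 0.10 (limma unadjusted p = 0.043, adjusted p = 1.00). Within scan days it was -0.34, -0.21 and -0.12, and without scan day 1 it was -0.20 ± 0.11. The TiO2 livers, from 0.59 to 0.95 at day 1 (median 0.78) and from 0.51 to 0.97 at day 28 (median 0.72), overlapped between the days.

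The lowest differences between the control groups were those of Uqcrb at -0.44 ± 0.22, Sdhc at -0.43 ± 0.23, Cox6c at -0.35 ± 0.39, Ndufa6 at -0.34 ± 0.49 and Atp5e, a small subunit of the central stalk of ATP synthase, at -0.30 ± 0.24, and the highest that of Ndufab1 at 0.24 ± 0.13. These 6, without scan day 1, were -0.07, -0.21, -0.12, -0.10, -0.17 and 0.07; for Uqcrb the values within scan days were -1.75, 0.08 and -0.15. The second Ndufab1 probe gave -0.09. In all, 26 genes were higher and 56 lower at day 28 (68.3% lower, against 51.4% of features), with a median of -0.05 against 0.00. With scan day as a block 5 of 82 had an unadjusted p under 0.05 (6.10%, against 7.69% of features), Ndufb8 higher and Ndufs8, Sdhc, Uqcrb and Cox6b1 lower, and none passed. With median centring 18 of 82 were lower (22.0%, against 27.2% of features) and the median was 0.13 against 0.08, so this direction depends on the normalization. Without scan day 1, 57 of 82 were lower (69.5%, against 48.2% of features), and Ndufs8, an iron-sulfur subunit of complex I, had the 1 unadjusted p under 0.05 (1.22%, against 3.39% of features), with a difference of -0.31.

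In the TiO2 livers 41 genes were higher and 41 lower at day 28 than at day 1, with a median of 0.01. Of all features 48.7% were lower. With median centring 30 of 82 were lower (all features 34.4%). Over all features 6 passed the adjusted threshold in limma (0.034%), and 0 of 82 of these genes did. Sdhd, a membrane anchor of complex II, had the 1 unadjusted p under 0.05 (1.22%, against 3.8% of features). It ran from 0.89 to 1.10 at day 1 (median 0.98) and from 1.02 to 1.36 at day 28 (median 1.18), with higher values at day 28 and some overlap. The difference was 0.22 ± 0.10 (limma unadjusted p = 0.036, adjusted p = 1.00), and it was 0.32, 0.15 and 0.19 within the scan days. Lower means were found in 32 of 82 genes without scan day 1 (39.0%, against 46.4% of features). The largest difference was that of Cox6c, at 0.53 ± 0.35, the only 1 of the 82 over 0.5 here. Within scan days it was 1.07, 0.10 and 0.22, and without scan day 1 it was 0.16 ± 0.11. Lowest in complex IV was Cox7a2l, a factor of respiratory supercomplexes, at -0.27 ± 0.20, and in complex V the highest and lowest were Atp5c1, the central stalk subunit gamma, at 0.25 ± 0.20 and the small membrane subunit Atp5mpl at -0.19 ± 0.15. These 3, without scan day 1, were 0.02, -0.0047 and -0.09. With scan day as a block, Sdhd, Ndufs1, Cox7a1 and Cox7a2 had an unadjusted p under 0.05 (4 of 82, 4.88%, against 8.74% of features), all higher at day 28, and none passed.

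Different probes of 1 gene disagreed in sign by over 0.3 in some comparisons. At day 1 the TiO2 difference of Ndufaf4 was -0.31 by its brightest probe and up to 0.16 by another, that of Ndufa12 -0.16 by its brightest and between -0.27 and 0.06 over its probes, and that of Sdha -0.33 by its brighter and 0.00 by its dimmer probe. Between the control groups the probes of Atp5h gave 0.11 and -0.33, and those of Atp5b ran from 0.14 for the brightest to -0.22. The choice of the brightest probe therefore sets the sign for these genes.

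Genes around the chain were read from lists of related functions. Of 13 tricarboxylic acid cycle genes the control median was 0.52, with Suclg2 of succinyl-CoA ligase at 2.07 and citrate synthase (Cs) at -1.11. The 36 assembly factors on the array outside the name rule had a median of 0.39. The 33 of them that were tested ran from 1.51 for Cox16 to -1.70 for Atpif1, the inhibitor of ATP synthase. The 17 regulators of mitochondrial gene expression on the array had a median of 0.21, with the coactivator Ppargc1a at 1.81. Over the 9 carriers, channels and uncouplers on the array, of which 7 were tested, the median was -0.45. Slc25a4, the ADP/ATP carrier of heart and muscle, stood at -4.36, whereas Slc25a5, its broadly expressed relative, stood at 0.59. The 76 mitochondrial ribosome genes had a median of 0.01. Cyc1, the cytochrome c1 subunit of complex III that the name rule leaves out, stood at 0.19. Cycs, the cytochrome c between complexes III and IV, stood at 0.08.

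None of the genes of these lists passed the adjusted threshold in any of the 5 comparisons. At day 1, 8 of 13 tricarboxylic acid cycle genes, 20 of 33 assembly factors, 12 of 16 regulators, 5 of 7 carriers and both cytochromes had lower means in TiO2 livers, with medians of -0.10, -0.04, -0.08, -0.06 and -0.17, whereas 37 of 76 mitochondrial ribosome genes did, with a median of 0.00. An unadjusted limma p under 0.05 was found at day 1 in 7 genes of these lists, none of which passed the adjustment. By list these were 1 of 2 cytochromes, 2 of 33 assembly factors, 1 of 16 regulators and 2 of 13 tricarboxylic acid cycle genes. The carriers gave 0 of 7 and the mitochondrial ribosome 1 of 76, and the share over all features was 1.72%. Of the cytochromes, Cyc1 had a difference of -0.27 ± 0.12 (SE). Of the 33 assembly factors, Cox19 and Coa6, both of cytochrome c oxidase assembly, had 0.18 ± 0.08 and 0.31 ± 0.13, and of the 16 regulators, the transcription factor Yy1 had 0.20 ± 0.09. Of the 13 tricarboxylic acid cycle genes, Ogdh and Dld, subunits of the 2-oxoglutarate dehydrogenase complex, had 0.30 ± 0.13 and -0.25 ± 0.12, and of the 76 mitochondrial ribosome genes Mrpl1 had 0.33 ± 0.13. Between the days in TiO2 livers, Idh3g, a subunit of isocitrate dehydrogenase, was higher at day 28 by 0.34 ± 0.10 with a limma adjusted p of 0.55.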

How the data were processed

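Each of 21 2-colour Agilent arrays held 1 liver in Cy5 and the reference pool in Cy3. The deposited scanner files give the intensity of each spot and background in both channels and a log10 ratio, and per the submitters' processing notes they came from Agilent Feature Extraction 9.5.3.1, whereas the file headers give 10.7.3.1. A deposited table of processed log2 values was set against log2 ratios computed here without background subtraction, an alternative to the main processing. It matched them with liver over reference as its direction (correlations over probes 0.996 to 0.997, slopes 0.991 to 0.993, column medians -0.058 to -0.011). These figures do not describe the match to the background-corrected ratios used for the results. The sources used here do not give how the authors centred the deposited table.

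Median spot intensities were background corrected with normexp (offset 50) and normalized by loess within each array, control spots having weight 0. Spots that the scanner software marked as outliers, in the spot or its background, were given the median background of their array, a step decided after the files were seen, and spots marked as outliers themselves were then left out. A probe entered the fit when 50% or more of the arrays in any group had a liver signal well above background, and each named gene was read from its brightest probe, which left 17624 features. Probes were named through RefSeq accessions, and 17800 of 41174 probes had no symbol. The header build differs from that of the RefSeq tables, so coordinates are given for RefSeq promoters alone.

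Group means were fitted over all 21 arrays with limma 3.58.1 in R 4.3.3, and p-values were adjusted by Benjamini-Hochberg over all features in each of 5 comparisons. The comparisons share groups and are not independent. On simulated data for TiO2 against control at day 1 (17449 features, 200 shifted), 38.5% of shifts of 0.5, 86.5% of shifts of 1 and 97.5% of shifts of 2 log2 units were called. Whether these rates hold on the real arrays, where part of the spread within groups followed scan day, was not tested. On the real arrays 0 of 17624 features passed an adjusted p of 0.05 in limma for this comparison. Lcn2 at 1.48 and Saa3 at 2.41 log2 units were among those that did not pass. The number of arrays limits the precision. The labels call the samples biological replicates and give no replicate numbers that tie mice across groups; the numbers used here follow accession order. The design text speaks of 22 arrays, of which the 21 given here were analysed.

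The genes, the lists and the tests were chosen with earlier results of these data known. Genes named were, in each complex, those with the highest and lowest difference in each comparison and the highest and lowest control level, those with an unadjusted p under 0.05, isoform pairs, core subunits, genes whose probes disagreed in sign by over 0.3, and pathway list members, with Lcn2 and Saa3 for scale. Genes outside this rule were named after their values were seen. One core subunit that the rule names is not reported here. The alternatives changed the background correction, the normalization, the filter, the probe, the source of the values, scan day, slide, array weights and the arrays used.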

Additional observations from a re-analysis of the deposited data

Results flagged for a closer look

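Of 217 sets of values (1 gene, or 1 median over genes, in 1 group), 28 held a sample far from the other mice of its group by Dixon's criterion. Chance meets this criterion in about 1 in 20 independent sets. The genes were picked partly for large differences and share arrays, so that rate is no fair measure here. All 28 were arrays of scan day 1: 13 were control day 1 replicate 1, 7 control day 28 replicate 1, 5 TiO2 day 28 replicate 1, 2 TiO2 day 1 replicate 2 and 1 TiO2 day 28 replicate 2. Scan day 1 held 1 array of each control group and 2 of each TiO2 group. The criterion looks for 1 value apart from the rest, so 2 arrays that shift together can escape it. Ndufs1 at -1.13 and -1.87 on TiO2 day 1 replicates 1 and 2 was not flagged. The counts per array therefore do not rank the arrays. Most of the 28 stood below their group. Control day 1 replicate 1 was low in Atp5g2 (-1.88), Atp5g3 (0.51), Atp5j (-0.55), Cox6c (-0.82), Ndufa12 (-1.53), Ndufa6 (-0.71), Ndufaf1 (-0.02), Ndufs1 (-1.23) and Uqcrfs1 (0.98). It was high in Cox4i1 (1.07), Ndufb2 (1.89), Ndufs8 (1.06) and Ndufv1 (1.38). Control day 28 replicate 1 was low in Atp5j (-0.84), Cox6c (-1.63), Ndufa12 (-1.63), Ndufa6 (-1.52), Ndufaf1 (0.19) and Ndufs1 (-1.23) and high in Cox4i1 (0.62). TiO2 day 28 replicate 1 was low in Atp5g3 (-0.54), Atp5j (-0.68), Ndufaf1 (-0.18) and Ndufs1 (-1.41) and high in Ndufs8 (0.73). TiO2 day 1 replicate 2 was low in Atp5g2 (-2.69) and Ndufaf4 (-0.97), and TiO2 day 28 replicate 2 was low in Cox6c (-0.23). Atp5j, Cox6c, Ndufaf1 and Ndufs1 met the criterion in 3 of the 4 groups, each time as the lowest value. In day 28 TiO2 livers Cox6c was judged over 5 mice, since 1 array of scan day 1 had no value.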

How the results depend on the processing

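No gene of the 82 passed an adjusted p of 0.05 in limma in any comparison under any alternative that was run, and leaving out single arrays gave 0 called as well. Over all features, 6 passed between TiO2 day 28 and TiO2 day 1; this was 3 with normexp offset 10, 0 with median centring, 2 with scaling between arrays, 1 with the scanner's LogRatio, 32 and 14 with slide as a random and a fixed block, 20 with a scan day block, 15 with array weights, and 1, 0 and 0 without the arrays of scan days 1, 2 and 3. Single arrays left out gave 5 to 8. For TiO2 against control at day 1, where 0 passed, slide as a random block gave 3, array weights 1 and single arrays left out 0 to 3, the 3 without TiO2 day 1 replicate 2; for the controls of day 28 against day 1, array weights gave 10 and single arrays left out 0 to 1, the 1 without control day 1 replicate 4. Median centring moved the median of all features by -0.10 at day 1, -0.14 at day 28 and 0.08 between the control groups. It gave these genes medians of -0.253 and -0.317 for TiO2 at days 1 and 28, 0.131 between the control groups and -0.0973 for the change of the TiO2 effect. The median levels of complexes I to V became 0.870, 1.48, 1.51, 0.398 and 0.896 with offset 10, and -0.236, 0.369, 0.538, -0.552 and -0.123 with median centring. LogRatio gave 0.851 for complex I, 0.600 for IV and 0.952 for V, and the deposited values gave 0.919 for II, 0.169 for IV and 0.518 for V. Complex IV was 0.189 without scan day 1 and 0.137 without scan day 2, which also gave 1.44 for III and 0.561 for V.

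The following single genes turned sign, and the cause was not tested. For TiO2 against control at day 1, median centring gave -0.051 for Cox6a2, -0.127 for Uqcrfs1, -0.00496 for Atp5pb and -0.084 for Sdhb, LogRatio -0.057, -0.091, -0.036 and -0.037, and the liver channel alone -0.046 for Cox6a2. Uqcrfs1 was -0.017 with slide fixed, -0.048 with array weights and -0.101 without scan day 1; Sdhb was -0.0025 and -0.029 in the last pair, and Atp5pb -0.048 without scan day 1. At day 28, Uqcrb was -0.019 with offset 10, -0.536 with median centring, -0.177 with LogRatio, -0.035 with array weights and -0.106 without scan day 1. Median centring gave -0.184 for Ndufb11, -0.208 for Atp5g2 and -0.137 for Sdhc, LogRatio -0.041 and -0.071 and array weights -0.037 and -0.092 for the latter pair. Cox4i1 was 0.074 without scan day 1 and Sdha 0.019 without scan day 2. Between the control groups, Uqcrb was 0.017 with median centring and 0.0095 with LogRatio, Uqcrh -0.168 with LogRatio, -0.125 with array weights and -0.056 without scan day 1, Atp5pb -0.043 and -0.032 with LogRatio and array weights, Sdhd -0.0070 with array weights and Cox7a1 -0.016 without scan day 2. Between the TiO2 groups, Sdhb was 0.039 with median centring and 0.072 with slide fixed, Uqcrc2 0.0027 with LogRatio, 0.029 with slide fixed and 0.077 without scan day 1, and Cox7a2l and Atp5c1 0.017 and -0.0047 without scan day 1. For the change of the TiO2 effect, Uqcrb was -0.189 and -0.069 with median centring and LogRatio, Uqcrfs1 0.052, 0.035 and 0.057 with LogRatio, array weights and without scan day 1, and Sdhb 0.086, 0.042, 0.100, 0.023 and 0.098 with LogRatio, slide random, slide fixed, array weights and without scan day 1.

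Leaving out single arrays gave ranges that cross 0. At day 1 these were -0.044 to 0.098 for Uqcrfs1, -0.015 to 0.186 for Sdhb and -0.045 to 0.345 for Cox6a2. At day 28 they were -0.0048 to 0.619 for Cox6c, -0.301 to 0.056 for Cox4i1, -0.102 to 0.147 for Uqcrb, -0.217 to 0.30 for Atp5g2, -0.175 to 0.273 for Sdhc and -0.318 to 0.081 for Sdha. Between the control groups they were -0.0024 to 0.282 for Uqcrh, -0.564 to 0.095 for Cox6c and -0.599 to 0.163 for Ndufa6. For the change of the effect they were -0.0092 to 0.319 for Uqcrb, -0.124 to 0.084 for Sdhb and -0.058 to 0.745 for Atp5j. The array whose loss turned the sign was control day 1 replicate 1 for Uqcrfs1 and Sdhb at day 1, Uqcrh and the Uqcrb and Sdhb changes of effect, and control day 28 replicate 1 for Cox6c, Cox4i1, Uqcrb, Atp5g2 and Sdhc at day 28, Cox6c and Ndufa6 between the control groups, and the Atp5j and Sdhb changes of effect. Other such arrays were control day 1 replicate 3 (Cox6a2), TiO2 day 1 replicate 2 (Cox6a2 and Uqcrfs1), TiO2 day 28 replicate 1 (Uqcrb and Sdha at day 28), control day 28 replicate 2 (Sdha), and, for the Sdhb change of effect, TiO2 day 1 replicate 6 and TiO2 day 28 replicates 2, 3 and 6. No paired analysis was possible because the labels give no replicate numbers shared between groups. The 4 to 6 mice in a group and a median SE of 0.14 to 0.22 log2 units over the 5 comparisons limit what could be called.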
